A study of Homo sapiens with 8 samples.

Results

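LINC00632 is a long noncoding RNA gene of the human X chromosome whose best known product is a circular RNA antisense to CDR1, named CDR1as or ciRS-7. IGF2BP1 binding to this RNA was described from the peaks on the plus strand of a single stretch of 1449 nt (GRCh38, chrX:140783209-140784657), which will be called the locus, together with any other peak in the gene. The locus held 66 of the 22311 peaks found in H1299 cells exposed to DMSO and 55 of the 22123 peaks found in cells exposed to AVJ16. It was chosen because of its many strong peaks, so the number and height of the peaks are a description and carry no test.

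H1299, the cell line used, comes from a human lung carcinoma of the non-small cell type and is labelled WT, and AVJ16 is a small molecule inhibitor of IGF2BP1. Cells received 1.5 µM AVJ16 or 0.01% DMSO for 24 h and were irradiated with UV light at 254 nm (400 mJ/cm2) to fix proteins to RNA. In eCLIP, RNA that is crosslinked to the immunoprecipitated protein is sequenced beside a size-matched input, and a peak is a stretch where IP reads exceed input reads. Each treatment had 2 IP libraries and 2 inputs, 8 libraries in all, made in batches from a single thaw of cells, but the deposited data are 1 peak list per treatment with both replicates pooled. Heights are given as log2 fold enrichment of IP over input. No spread between replicates could be computed, library depth is unknown from the lists, and no p-value is given for any difference between the treatments.

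CDR1as is known from brain, where it carries a long array of binding sites for the microRNA miR-7 and is loaded with Argonaute proteins. A microRNA finds its targets mainly through its seed, a short run of bases near its 5′ end. A second microRNA, miR-671, pairs along most of its length with another site in CDR1as and can direct its cleavage. The long noncoding RNA OIP5-AS1, also called Cyrano, promotes the destruction of miR-7. IGF2BP1 is an oncofetal RNA binding protein that stabilises many messenger RNAs, mostly through their 3′ ends. Peaks do not tell whether the bound RNA was circular or linear, and this was not measured in the lists.

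The sequences below show the 2 microRNAs, the miR-671 site and examples of the repeat that fills the locus, each written 5′ to 3′. Mature microRNAs are from RefSeq (GRCh38.p14), with the seed, bases 2 to 8, in capitals. Capitals in the miR-671 site mark bases that form Watson-Crick pairs with miR-671-5p. In the repeats, read from the plus strand of GRCh38 and numbered from 1 along the RNA, capitals mark the match to the miR-7 seed. Repeats 2 and 7 are shown for the highest enrichment with AVJ16 and with DMSO, repeats 35 and 41 because their sequence is the same, repeat 61 because it was lower with AVJ16, and repeat 51 because neither list had a peak there.
miR-7-5p: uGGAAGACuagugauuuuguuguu
miR-671-5p: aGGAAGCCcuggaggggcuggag
miR-671 site (chrX:140784460-140784482): uUCCAGCauCUCCAGGGCUUCCa
repeat 2 (chrX:140783236-140783254): GUCUUCCaauaaucucaag
repeat 7 (chrX:140783363-140783379): GUCUUCCagcaaaucca
repeat 35 (chrX:140783989-140784006): GUCUUCCagaaaauccuu
repeat 41 (chrX:140784115-140784132): GUCUUCCagaaaauccuu
repeat 51 (chrX:140784313-140784330): GUCUUCCaacaaagguac
repeat 61 (chrX:140784511-140784528): GUCUUCCagcaucucugu

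All IGF2BP1 peaks of the gene lay in the locus and covered most of it. The locus begins and ends exactly where the outermost DMSO peaks do. A high covered share and the absence of peaks outside it follow in part from that choice. In GENCODE release 44, LINC00632 (ENSG00000203930.13) runs over 83654 nt, chrX:140709562-140793215, and has 29 transcripts. All peaks lay in exons that overlap the locus. Outside it, LINC00632 had 0 peaks in either list. On the minus strand, CDR1 (ENSG00000288642.1, chrX:140783578-140784366, typed lncRNA in this release) had 0 peaks in either list, and so did the minus strand of the remaining LINC00632 body.

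The ends of the covered part were set beside the annotated exon ends. Positions are counted below from the start of the annotated exon at 140783175. The first peak began 34 nt after that start in both lists. The last DMSO peak ended 2 nt before 140784659, the end of a different annotated exon of 203 nt that starts at 140784457. From 140783175 to that end are 1485 nt, but no annotated exon has both of these bounds. The annotated exons that start at 140783175 and hold the locus run on, the longest to 140787343. They had no peak beyond the last peak of the locus. The locus itself was bounded by these outermost peaks.

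DMSO peaks covered 1335 of the 1449 positions (92.1%) and AVJ16 peaks covered 1204 (83.1%). Both lists covered 1180 positions, DMSO alone 155, AVJ16 alone 24, and neither list 90. Coverage was highest in the middle of the locus and lowest in its last part, where the longest gaps of both lists lay between 1101 and 1276. Cut into 3 equal parts, the locus was covered to 96.9%, 98.8% and 80.7% with DMSO, and to 88.0%, 94.6% and 66.7% with AVJ16.

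**Figure D1:**
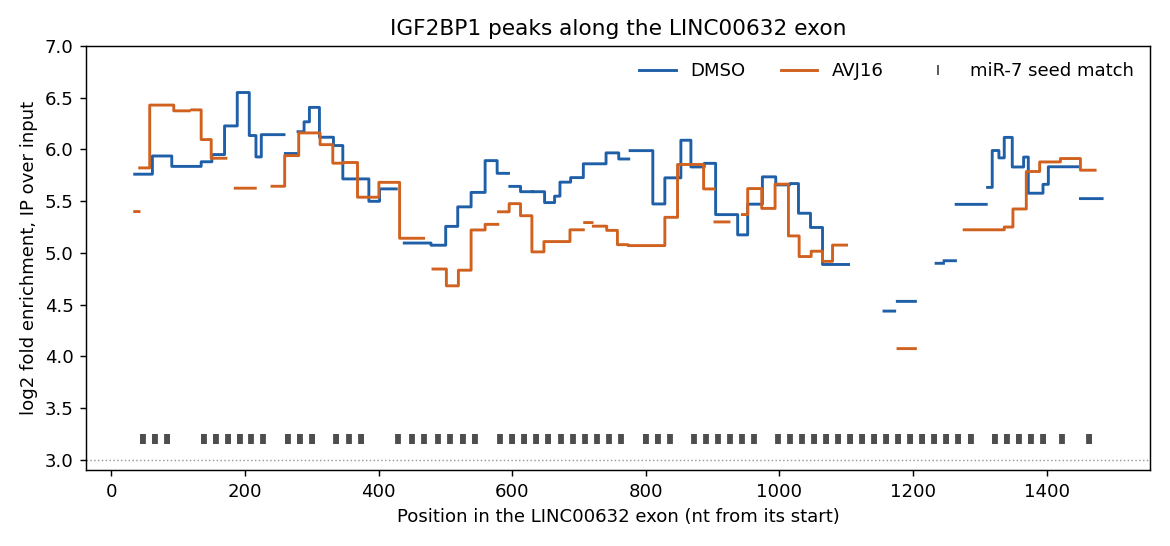
Log2 fold enrichment of the peaks (y axis, one line per list) along the LINC00632 exon (x axis, nt from the exon start), with ticks for the 66 miR-7 seed matches and a dotted line at the list threshold of 3. Both lists stayed between 4.08 and 6.55 wherever a peak lay, and the largest DMSO gaps are at positions 1104 to 1156 and 1204 to 1234.

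Enrichment was high wherever a peak lay. The median over covered positions was 5.71 with DMSO and 5.41 with AVJ16 on the log2 scale. Single peaks ranged from 4.44 to 6.55 with DMSO and from 4.08 to 6.43 with AVJ16. Even the lowest peak of the locus was above the median of all peaks, 3.63 with DMSO and 3.61 with AVJ16. With DMSO, 99.2% of all peaks lay below the median of the locus, and with AVJ16 98.6%.

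The locus held a large share of the strongest peaks, counted as listed. Of the peaks with a log2 enrichment of at least 5, it held 61 of 1014 with DMSO (6.02%) and 49 of 822 with AVJ16 (5.96%). At 6 or more it held 11 of 78 (14.1%) and 6 of 42 (14.3%). Only 8 DMSO and 9 AVJ16 peaks elsewhere were higher than its best peak. Peaks of the locus were short, with a median of 18 nt against 67 nt over all DMSO peaks. The shares above therefore depend on how the signal was cut into peaks. The −log10 p of a peak, from IP against input reads, has an upper limit of 400 in the lists. In the locus, 61 of 66 peaks with DMSO and 45 of 55 with AVJ16 reached that limit, against 3.03% and 3.61% of all peaks, so −log10 p hardly orders the peaks of the locus.

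Height dipped in the 3′ section and was higher again near the 3′ end. With DMSO, the median was 5.88 in the first part, 5.73 in the middle and 5.52 in the last. With AVJ16, it was 5.87, 5.28 and 5.22. The lowest peaks in both lists lay between 1157 and 1203, at 4.44 and 4.53 with DMSO and 4.08 with AVJ16. Past the miR-671 site, peaks at 1370 to 1472 again stood between 5.79 and 5.91 with AVJ16. The median of the first part was similar in both lists, although single stretches there differed in both directions.

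Peaks in the locus were short and lay next to each other. Their median length was 18 nt with DMSO (7 to 47) and 20 nt with AVJ16 (7 to 60), against 67 and 60 nt over all peaks. Joining peaks that touch left 14 sites with DMSO and 13 with AVJ16. The longest of these sites held 15 peaks over 327 nt with DMSO and 9 peaks over 227 nt with AVJ16. A count of peaks here is therefore a count of segments in a continuous signal, and not of separate binding sites.

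Among noncoding genes LINC00632 had the most exon peaks in both lists. It held 16.9% of the 391 DMSO peaks and 13.1% of the 419 peaks with AVJ16 in exons of noncoding genes. SNHG16, the host gene of small nucleolar RNAs, was next with 17 and 20 exon peaks, the best at 4.95 and 4.86. FGD5-AS1, an antisense long noncoding RNA, followed with 11 and 13, the best at 4.61 and 4.45. The median of the noncoding exon peaks outside LINC00632 was 3.56 with DMSO and 3.61 with AVJ16, and the highest was 6.02 and 6.70. The highest with AVJ16 was in PABPC1P4, a processed pseudogene named here after its values were seen. Its 8 AVJ16 peaks had a median of 6.08, above that of LINC00632, and as a near copy of another gene it may share reads with it. In the number of peaks per gene of any kind, 4 genes exceeded LINC00632 with DMSO and 3 with AVJ16. The numbers of peaks per gene are as listed, without joining peaks that touch.

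Continuous coverage by peaks was rare at this height. Peaks of both lists were joined over gaps of up to 50 nt, which split the locus at a gap into a cluster of 1069 nt and a shorter one. The longer cluster had 961 positions covered in both lists and was the fifth of 7896 clusters in this respect. The 4 clusters above it were in QSER1 (1174 positions, chr11:32931803-32933399), a regulator of DNA methylation, TPP1 (990, chr11:6613252-6614507), a lysosomal peptidase, TAB2 (973, chr6:149378407-149379472), an adaptor of the kinase TAK1, and NOTCH2 (966, chr1:119912835-119914047), a receptor of the Notch pathway. The median DMSO enrichment of those 4 lay between 3.82 and 4.83, against 5.73 for the LINC00632 cluster. Their median peak length was 35 to 52 nt, against 19 nt. Of the 1036 clusters outside the locus with at least 200 positions covered in both lists, 3 had a higher median with DMSO and 12 with AVJ16.

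**Figure D2:**
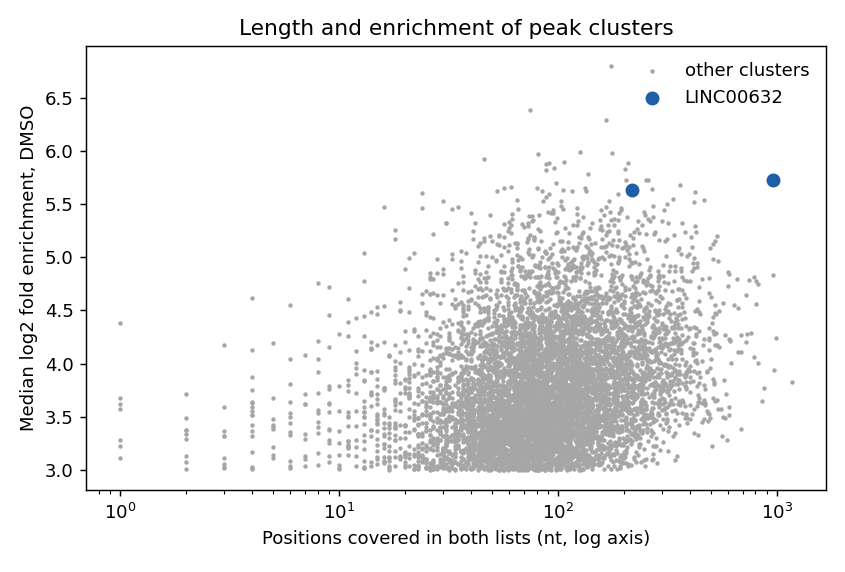
Each point is a cluster of peaks joined over gaps of up to 50 nt, with the number of positions covered in both lists (x axis, log scale) and its median log2 fold enrichment with DMSO (y axis). The 2 LINC00632 clusters are drawn larger, and the longer of them, with 961 positions, stands at 5.73, above the 4 clusters with more positions.

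The sequence of the locus is an array of the miR-7 seed match. The heptamer GUCUUCC, complementary to bases 2 to 8 of miR-7, occurred 66 times on the plus strand, or 45.5 times per 1000 nt. In all other DMSO peaks it occurred 182 times, in 180 of 22245 peaks (0.809%), or 0.113 times per 1000 nt. Windows of the same length were taken from annotated exons, and 3166 of 28281 (11.2%) held it at all, with at most 5 copies. An A followed 58 of the 66 matches in the locus. The array began upstream of the peaks: 1 further match lay in the 34 nt between the exon start and the first peak, and 0 in the 400 nt after the locus.

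Most of these matches lay inside peaks, as did most of the locus. With DMSO, 58 of the 66 matches (87.9%) were wholly inside a peak, and with AVJ16 50 (75.8%). At least 1 base of a match was covered at 63 matches with DMSO and 56 with AVJ16. Since 97.2% of the locus lies within 15 nt of a match, a distance of 5 nt was used to set matches apart. Positions within 5 nt, 77.4% of the locus, had a median enrichment of 5.68 with DMSO, and the others 5.83. With AVJ16 these medians were 5.34 and 5.64. A peak carries a single value and most peaks touch a match, so these medians cannot separate matches from the bases between them.

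The period of the array was seen in the peak borders. Successive matches began 18 nt apart in the median (17 to 55), and successive peaks began 18 nt apart with DMSO and 20 nt with AVJ16. A start of a peak was set against the start of the last match before it. With DMSO, 15 peaks began exactly on the first base of a match, and with AVJ16 4. Anywhere inside a match began 37.9% of DMSO peaks and 23.6% of AVJ16 peaks, where matches make up 31.9% of the locus. Just 1 DMSO and 2 AVJ16 peaks began 4 to 9 nt after a match start, although such positions make up 27.3% of the locus. This range was picked after the counts were seen. With DMSO, 43 peaks touched 1 match, 13 touched several and 10 none, and with AVJ16 35, 13 and 7.

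**Figure D3:**
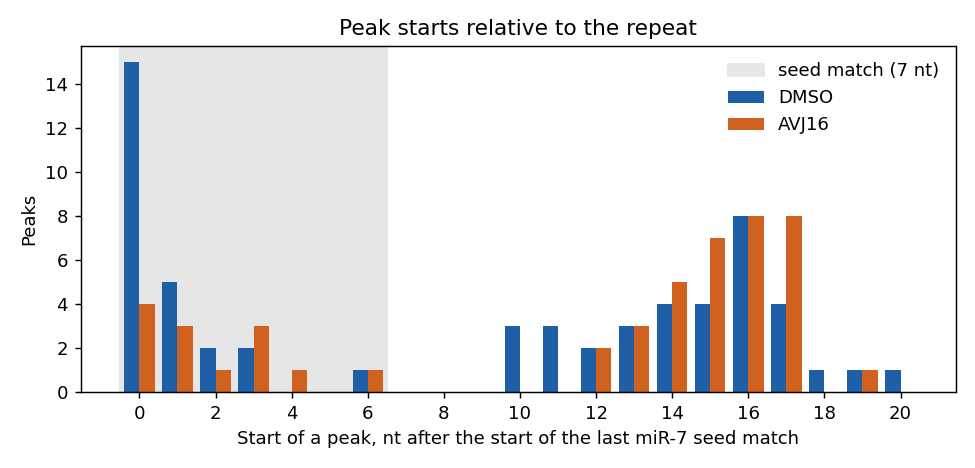
Number of peaks (y axis) by the distance of the peak's start from the start of the last miR-7 seed match (x axis, nt), with DMSO in blue, AVJ16 in orange and the match shaded. Distances above 20 nt are not drawn. DMSO starts were most frequent at the first base of the match, with 15, and AVJ16 starts at 16 and 17 nt, with 8 each. Neither list had a start at 7 to 9 nt.

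The miR-671 site lay in the last part of the locus, at positions 1286 to 1308. Of the 23 bases of miR-671-5p, 19 form Watson-Crick pairs with the site and 2 form G-U pairs, and the next best alignment in the locus has 16. A single peak covered the site entirely in each list. Its enrichment was 5.47 with DMSO and 5.22 with AVJ16, a difference of −0.25, which is close to the median difference of the locus.

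Motifs linked to IGF2BP1 were counted on the transcribed strand. IGF2BP1 is known to favour RNA with CAU elements and with GGAC, the sequence context of m6A. UCCAG has another origin, the paper's own search for motifs enriched in these same eCLIP peaks. The paper cautions that motifs from that search need not be the site the protein recognises. The density of UCCAG in the locus is therefore no independent sign of recognition by IGF2BP1. UCCAG occurred 54 times in the locus, 37.3 times per 1000 nt against 1.74 in the other DMSO peaks, and 37 of these overlapped a miR-7 match. This pentamer was present in 88.3% of exon windows of the same length, at most 26 times. The related letters CAUG occurred 15 times (10.4 per 1000 nt against 4.48), and all of them overlapped a match. CAUC occurred 11 times (7.59 against 5.01), and 3 overlapped a match. These motifs are thus in part the repeat itself, in another reading.

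Other motifs were scarce in the locus. CAUU and CAUA occurred once each, and GGAC once, at 0.69 per 1000 nt against 6.83, 3.82 and 2.62 in the other DMSO peaks. CCNGUU and UUUCCGAA, which also come from the paper's motif search in these peaks, did not occur. In windows of the same length, CAUC was present in 99.1%, CAUG in 99.3%, CAUU in 98.0%, CAUA in 92.1%, GGAC in 96.2%, CCNGUU in 64.1% and UUUCCGAA in 0.732%. The locus is poor in G (13.3%), with A at 27.8%, C at 30.8% and U at 28.1%.

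Most peaks of the locus overlapped a peak of the other list. A DMSO peak was called shared if an AVJ16 peak overlapped it by at least 1 nt, and was paired with the one that overlapped it most. Of the 66 DMSO peaks, 62 were shared, where the share over all DMSO peaks was 66.2%. All 55 AVJ16 peaks overlapped a DMSO peak, where the share over all AVJ16 peaks was 70.8%. With a locus covered to 92.1% and 83.1%, overlap follows almost from coverage. Borders differed more than presence did: 10 DMSO peaks began at the very base where an AVJ16 peak began, and 31 within 1 nt of one.

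The 4 DMSO peaks without a partner were of different height. The peak at 217 to 224 had an enrichment of 5.93 with −log10 p at 400. The other 3 lay at 1157 to 1172 (4.44), 1235 to 1245 (4.90) and 1247 to 1263 (4.92), in the weaker section before the miR-671 site. Their −log10 p was at most 74.1. The first of these was thus tall, and the other 3 were among the lowest of the locus.

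Gaps of at least 10 nt were more frequent with AVJ16. DMSO had 3 of them, at 427 to 438, 1104 to 1156 and 1204 to 1234. AVJ16 had 7, of which those at 1101 to 1177 and 1204 to 1276 held the DMSO gaps of the 3′ section. Positions 172 to 185 and 216 to 240 had no AVJ16 peak but a mean DMSO enrichment of 6.23 and 6.07. They flank repeat 7, where the DMSO list had its highest peak. A gap says that no peak passed the list thresholds in the pooled replicates there, and the number of reads is not known.

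Enrichment in the locus was lower with AVJ16 at most shared peaks, by a small amount. Over the 62 shared peaks the median difference, AVJ16 minus DMSO, was −0.25 on the log2 scale (SD 0.35 between peaks, range −0.92 to 0.54), and 45 were below 0. The study called a site changed by a difference beyond 0.5 together with an analysis of variance on its libraries. Only the limit of size could be applied to the pooled lists. A difference beyond 0.5 in size was found at 18 peaks in the lower direction (29.0%), where 20.1% of all shared peaks were lower. In the higher direction it was found at 1 peak (1.61%), where 12.6% of all shared peaks were higher. The 62 DMSO peaks were paired with 51 AVJ16 peaks, so some AVJ16 peaks counted more than once. With each peak used once, 12 of 51 pairs were lower and 1 was higher. Centring on the median of all shared peaks gave 14 of the 62 lower and 2 higher. The SD describes peaks of 1 RNA, which are not replicates. Whether −0.25 exceeds the spread between replicates cannot be said from pooled lists.

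Shared peaks elsewhere that passed the same limit of height were lower more often. The DMSO value enters both the height of a peak and its difference, so peaks of the locus were also set beside others chosen by the same lower limit. Above that limit the heights were not matched. Of the DMSO peaks at 5 or more, shared or not, 11 of 61 in the locus reached 6, and 78 of 1014 in the entire list. Among shared peaks with a DMSO enrichment of at least 5, a limit added after the values were seen, 18 of 60 in the locus were lower (30%) and the median was −0.25. Among the 918 other peaks at or above that limit, 540 were lower (58.8%) and the median was −0.68. Higher were 1 peak in the locus and 2.83% of the others. Over all such peaks, the locus included, 57.1% were lower and 2.76% higher. No test was made on this contrast, since peaks of 1 RNA are not independent.

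Set against other genes without regard to height, the median of LINC00632 was on the lower side. At a DMSO enrichment of at least 5 the order was the reverse, with −0.25 in the locus and −0.68 over the other peaks. Of the 371 genes with at least 10 shared peaks, LINC00632 had the most shared peaks. The medians of these genes ran from −1.09 to 0.50, with a middle value of −0.025, and 73 genes had a lower median than LINC00632. The SD over the shared peaks of LINC00632, 0.35, was smaller than in most of them, with 74 genes below it and a middle value of 0.47. Peaks of the locus are neighbouring segments, and some share an AVJ16 partner, which bears on this SD.

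Counted by position, the difference varied along the RNA. Over the 1180 positions covered in both lists the median difference was −0.23 (range −0.92 to 0.67). Lower by more than 0.5 were 282 positions (23.9%), and higher by more than 0.5 were 44 (3.73%). Over 902331 shared positions elsewhere the median was −0.073, with 20.7% lower and 12.6% higher. In the first part of the locus 11.2% of shared positions were lower and 10.7% higher, in the middle part 41.7% and 0%, and in the last part 15.0% and 0%. The lower positions were thus most frequent in the middle, and the higher ones lay only in the first part.

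**Figure D4:**
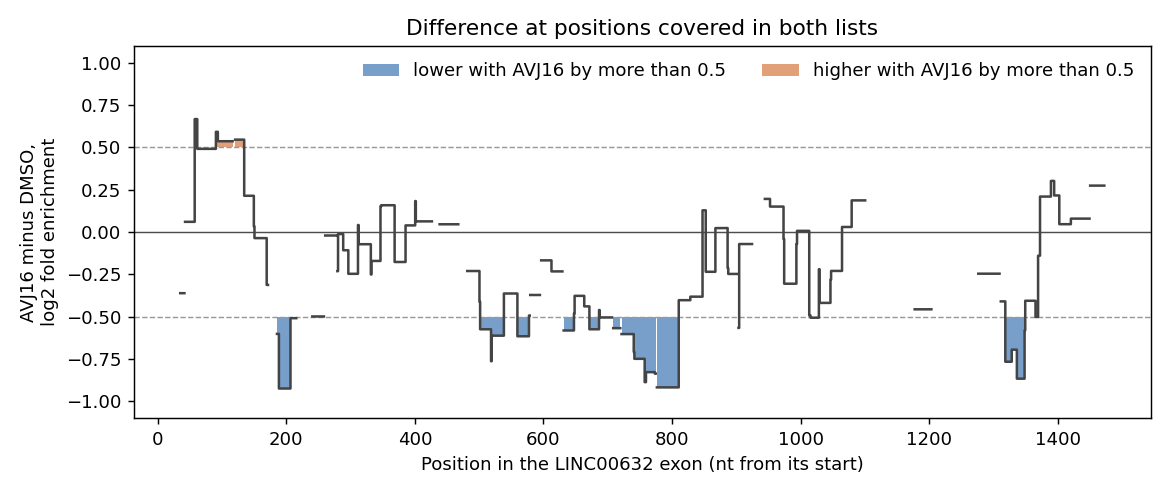
Difference in log2 fold enrichment, AVJ16 minus DMSO (y axis), at each position of the LINC00632 exon that both lists covered (x axis, nt from the exon start), with dashed lines at −0.5 and 0.5. Shading marks the 282 positions below −0.5 and the 44 above 0.5, and the longest shaded stretch lies between 722 and 810.

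Single stretches differed in opposite directions within a few repeats. Stretches of at least 10 nt beyond the limit numbered 11 in the lower and 2 in the higher direction. Near the 5′ end, positions 91 to 116 stood at 5.84 with DMSO and 6.38 with AVJ16, and repeat 2 just before them stood at 5.94 with DMSO and 6.43 with AVJ16. Further on, positions 186 to 215 stood at 6.39 with DMSO and 5.63 with AVJ16, and repeat 7 within them at 6.55 and 5.63. The strongest section thus lay nearer to the 5′ end with AVJ16 than with DMSO.

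In the middle and last parts every stretch of at least 10 nt beyond the limit was lower with AVJ16. Positions 722 to 774 had a mean of 5.91 with DMSO and 5.19 with AVJ16, and positions 777 to 810 of 5.99 and 5.07. Positions 1319 to 1349, just after the miR-671 site, had 6.01 and 5.23. A single AVJ16 peak, at 1277 to 1336 (5.22), gave the AVJ16 value both at the miR-671 site and in this stretch up to 1336. The DMSO list had several peaks there, so the AVJ16 list cannot set the stretch up to 1336 apart from the site. Repeat 61, at 1337 to 1354, had a mean of 6.02 with DMSO and 5.30 with AVJ16. Of the 59 repeats with positions covered in both lists, 43 were below 0, 15 of them by more than 0.5, and 1 was higher by more than 0.5.

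Repeats of the same sequence did not always share the same difference. Among the 65 repeats that end at a following match, 8 sequences occurred more than once and made up 18 repeats. Repeats 35 and 41, identical over their length, stood at 5.53 and 5.27 with DMSO and at 5.13 and 5.48 with AVJ16, with 14 of the 18 positions of repeat 41 covered in the AVJ16 list. Their differences over shared positions were −0.40 and 0.18. Repeats 39 and 45, another identical pair covered in full by both lists, had −0.071 and −0.40, and repeats 37 and 43 had 0.02 and 0.01. Values over identical letters were thus lower with AVJ16 in some places of the RNA and level or higher in others. A repeat takes the values of the peaks over it, and the AVJ16 peak at 774 to 828 spans repeat 34 and most of repeat 35. Repeats 34 and 40 are also identical, so reads within repeats 34 and 35 could be assigned to repeats 40 and 41. These differences therefore cannot be ascribed to single copies.

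Such copies bear on how reads can be placed. Of the 1420 words of 30 nt in the locus, 94 (6.62%) occur at another place in the genome, and all of their copies lie within the locus. These words span 348 positions, and reads within them could be assigned to either copy. The gap shared by both lists at 1104 to 1156 has 34 of its 53 nt in such words, and the one at 1204 to 1234 has 0 of 31. Within the repeats 48 to 51 of that first section, GUCUUCCaacaaagguac occurs 3 times. The part of read placement in the gaps was not tested.

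Most listed genes tied to miR-7 or CDR1as had an IGF2BP1 peak, but fewer peaks and a lower best peak than LINC00632. A list of 14 such genes held 12 with a peak in the DMSO list and 11 in the AVJ16 list. Over all protein-coding genes 25.8% had a DMSO peak and 23.2% an AVJ16 peak, and over lncRNA genes 0.912% and 0.753%. These shares count every annotated gene, expressed in H1299 or not, and a share over expressed genes could not be computed. The list was also chosen with earlier results of these data known, so no preference for it can be read from these counts. OIP5-AS1, which promotes decay of miR-7, had 5 peaks in each list, the best at 3.84 and 4.13. AGO2, which loads microRNAs, had 10 and 11, the best at 4.00 and 4.04. HNRNPK and MIR7-3HG, both hosts of miR-7 precursors, had none in either list.

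Among miR-7 targets, IGF1R, the receptor of insulin-like growth factors, came closest to the locus. It had 41 DMSO and 40 AVJ16 peaks, the best at 5.93 and 5.88, and of its 40 shared peaks none was lower and 7 were higher by more than 0.5, where 20.1% of all shared peaks were lower and 12.6% higher. EGFR, the receptor of epidermal growth factor, had 13 and 22 peaks, with 2 of 9 shared peaks lower and 4 higher. PSME3, a proteasome activator, had 17 and 15 peaks, with 5 of 16 shared peaks lower and none higher. IRS1, an adaptor of the insulin receptor, had 3 in each list, and all 3 shared peaks were higher, with a median of 0.65. Shared peaks of these targets thus differed in both directions, and each count is small.

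Other listed targets had few peaks. CKAP4 had 3 in each list, the best at 3.99 and 4.76, and PAK1, a kinase of cytoskeletal signalling, 2 in each, the best at 3.21 and 4.65. KLF4, a transcription factor, had 1 in each (3.75 and 3.15), and IRS2, a second insulin receptor adaptor, 1 with DMSO alone (3.14).

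Other hosts of circular RNAs and other long noncoding RNAs had fewer peaks and lower best peaks than LINC00632. Of 12 further host genes of known circular RNAs, 9 had a DMSO peak and 8 an AVJ16 peak. Over all annotated protein-coding genes, expressed or not, the shares were 25.8% and 23.2%. The largest numbers of peaks in 1 host gene were 11 with DMSO and 12 with AVJ16. Of 11 further long noncoding RNAs, 4 had a DMSO peak and 4 an AVJ16 peak, with at most 17 and 7. Over all annotated lncRNA genes the shares were 0.912% and 0.753%. Both lists were picked by hand, so these shares are given for scale only. No peak of these host genes and long noncoding RNAs reached an enrichment of 5, which all but 5 of the DMSO peaks in the LINC00632 locus did.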

How the data were processed

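eCLIP of IGF2BP1 was done in H1299 cells under DMSO or AVJ16, with 2 IP libraries and 2 size-matched inputs each, and the samples were grouped by treatment as labelled. The authors trimmed adapters, removed reads from repetitive elements and PCR duplicates, mapped with STAR (build hg38 per the labels), called peaks with CLIPper and compared IP with input. The −log10 p-value and the log2 fold enrichment of each peak were computed by the authors and deposited for both replicates together, with both lists normalized separately. Only peaks with a log2 enrichment of at least 3 and a −log10 p of at least 3 are listed, so a position without a peak has no value. Depth is unknown, and no interval or test for a treatment effect was made.

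Peaks were read with Python 3.11.15 and numpy 2.4.6, annotated with GENCODE release 44, paired across lists by the largest overlap on the same strand, and compared position by position, taking the highest peak where peaks overlapped. Differences beyond 0.5 were counted. Sequences were read from GRCh38, and words of 30 nt were counted on both strands of the genome with numba 0.67.0. Motifs were searched on the transcribed strand in the locus, in all other peaks and in exon windows of its length. Figures were drawn with matplotlib 3.10.9. The pairing, joining, profile and search steps were checked on simulated peaks whose answers were known.

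The genes named were LINC00632 and CDR1, the listed miR-7 network genes with a peak, the genes of the 5 clusters with the most positions covered in both lists, and the 3 noncoding genes with the most exon peaks in each list. Some listed genes are not reported here. HNRNPK and MIR7-3HG, which have no peak, are named in addition. Members, lists and motifs were chosen with earlier results of these data known. The limit of 5 on the DMSO enrichment, the count of CAUG, the medians per gene, the borders of peaks within a repeat and the comparison of identical repeats were added after seeing the data. The alternatives were other thresholds, joining, exon bounds, pairings, limits and centring, and other definitions of a seed match and a repeated word.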

Additional observations from a re-analysis of the deposited data

How the results depend on the processing

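No paired analysis was possible because the lists pool both replicates, and no replicate could be left out. Depth limits what a gap means, since read numbers are unknown. Requiring an enrichment of at least 4 or a −log10 p of at least 20 could remove no peak, since the lowest values in the locus were 4.08 and 54.4, so these settings say nothing about stability. Of the 54 other alternative values, 31 stayed close to the main value, 23 moved and none changed direction. With touching peaks joined, the locus held 14 DMSO and 13 AVJ16 sites, and with gaps of up to 50 nt joined 2 and 3. The covered share was 74.5% and 67.2% within the shortest exon that holds the entire locus, and 7.10% and 6.40% within the longest, with all peaks kept. Centring all differences on the median of all shared peaks (−0.061) gave 20.1% of positions lower and 6.19% higher, and 2 shared peaks higher. Keeping positions with −log10 p of 400 in both lists gave 27.8% lower. With a limit of 0.25, 42.2% of positions were lower and 8.47% higher, and 30 shared peaks were lower and 3 higher. With a limit of 1, all 4 of these counts were 0. Pairing that starts from the AVJ16 peaks gave 2 peaks higher, and with each peak used once 12 of 51 peaks were lower. The share of words that recur was 20.3% at 20 nt and 0.143% at 50 nt. The median difference over positions stayed between −0.25 and −0.17 under the alternatives run on it.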
